A study of Mus musculus with 4 samples.

Results

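Of the 7791 peaks of FLAG-tagged MIXL1 listed on 18 mouse autosomes, 568 were centred at most 1 kb from the start or the 3′ end of a protein-coding gene, which is 7.29% (exact 95% interval 6.72 to 7.89). These gene-end peaks made up 5.92% of the 9598 peaks in the whole list. They lay at the ends of 605 genes, which is the background share of 3.03% (2.79 to 3.27) of the 19986 protein-coding genes on these chromosomes against which every gene list is read below. Members were chosen by position alone, on chromosomes 1 to 19 without chromosome 12, in the mm10 (GRCm38.p6) coordinates of the NCBI RefSeq gene table.

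The chromatin came from Mixl1-inducible mouse epiblast stem cells (EpiSC), cultured counterparts of the post-implantation epiblast. The lines were grown on irradiated mouse embryonic fibroblasts in medium that held activin A at 20 ng/mL and bFGF at 10 ng/mL, then kept as embryoid bodies in serum for 2 d, with 1 µg/mL doxycycline for the 24 h before collection. All 4 libraries shared these conditions. The M2 antibody against FLAG was used for 2 of them, the other 2 hold input chromatin, and cells without doxycycline were not analysed here. A single list of peak positions, deposited by the authors, stands for all libraries together, with no height, score or p-value, so no value below has a replicate error, the sequencing depth is unknown, and the intervals cover counting of peaks, genes or promoters only. A peak list measures no expression, so neither the labelled cell type nor a contribution of the feeder fibroblasts could be checked with markers.

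MIXL1 is a paired-type homeodomain transcription factor of the primitive streak, the structure through which epiblast cells leave to form mesoderm and endoderm. Homeodomains contact a short AT-rich core, and paired-type proteins can bind as dimers to 2 such cores facing each other. Promoters of widely expressed genes are often rich in G, C and CpG, whereas many developmental genes are also controlled by enhancers far from their starts.

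Promoter sequences are shown for the genes whose promoter window held facing homeodomain cores and overlapped a gene-end peak. The windows are those of RefSeq (GRCm38.p6), from 250 bp before to 50 bp after a gene start, and the part of the window before the start that lies under the peak is printed 5′ to 3′ on the gene's strand, without bases inside the span of a protein-coding gene. For Polr3b the whole part before the gene span is printed. The searched pair was TAAT followed, after 2 to 4 bases, by ATTA, and the capitals mark the whole pair. Of the 211 windows overlapped by a gene-end peak 3 held it, which is 1.42% (0.294 to 4.10), against 1.09% of all 19362 windows. Commd4 encodes a COMM-domain protein, Htr3b a subunit of the serotonin-gated ion channel, and Polr3b the second-largest subunit of RNA polymerase III.
Commd4 (chr9:57158350-57158493, minus strand): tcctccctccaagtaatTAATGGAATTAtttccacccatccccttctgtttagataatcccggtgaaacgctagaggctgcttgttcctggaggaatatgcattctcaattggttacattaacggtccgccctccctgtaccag
Htr3b (chr9:48964991-48965240, minus strand): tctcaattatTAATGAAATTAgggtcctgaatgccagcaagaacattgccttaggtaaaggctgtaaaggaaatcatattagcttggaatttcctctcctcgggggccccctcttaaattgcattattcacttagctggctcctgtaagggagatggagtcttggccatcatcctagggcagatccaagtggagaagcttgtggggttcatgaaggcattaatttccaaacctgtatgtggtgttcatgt
Polr3b (chr10:84622048-84622291, plus strand): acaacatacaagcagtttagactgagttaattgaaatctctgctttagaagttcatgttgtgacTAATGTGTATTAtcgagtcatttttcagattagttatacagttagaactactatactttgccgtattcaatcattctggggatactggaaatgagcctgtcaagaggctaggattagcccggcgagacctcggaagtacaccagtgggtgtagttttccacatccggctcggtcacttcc

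In Commd4 and Htr3b the pair lay inside the peak, whose centre was 21 and 143 bp before the start of the gene span. The Polr3b peak, at chr10:84621631-84622055, was centred 449 bp before the start and reached only the first bases of the printed stretch, so that the pair lay outside it. This stretch also lies within the span of the long noncoding RNA gene Gm17249. The windows of Eomes and Hesx1 also held the pair, but the gene-end peaks of these genes did not overlap them.

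The next stretches hold the palindrome TAATTA, in which a core and its reverse complement overlap, inside a gene-end peak. They were chosen from 22 such genes after the motif counts were seen, so as to cover several gene functions. Cer1 encodes the secreted antagonist Cerberus, Zfp763 and Zfp952 zinc finger proteins, Pfdn5 a prefoldin subunit and Alg3 a mannosyltransferase of N-glycan synthesis. The capitals mark the palindrome.
Cer1 (chr4:82885152-82885401, minus strand): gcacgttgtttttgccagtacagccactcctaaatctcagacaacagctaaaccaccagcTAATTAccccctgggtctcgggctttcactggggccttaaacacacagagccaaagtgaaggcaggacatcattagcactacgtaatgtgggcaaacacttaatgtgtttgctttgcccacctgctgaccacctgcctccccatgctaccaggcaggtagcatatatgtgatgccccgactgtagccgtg
Zfp763 (chr17:33033382-33033631, minus strand): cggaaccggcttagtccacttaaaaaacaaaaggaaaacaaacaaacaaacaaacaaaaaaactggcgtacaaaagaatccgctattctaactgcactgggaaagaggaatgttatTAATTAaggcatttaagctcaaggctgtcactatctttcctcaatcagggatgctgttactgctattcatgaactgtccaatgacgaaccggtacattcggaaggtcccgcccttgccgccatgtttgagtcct
Zfp952 (chr17:32992889-32993107, plus strand): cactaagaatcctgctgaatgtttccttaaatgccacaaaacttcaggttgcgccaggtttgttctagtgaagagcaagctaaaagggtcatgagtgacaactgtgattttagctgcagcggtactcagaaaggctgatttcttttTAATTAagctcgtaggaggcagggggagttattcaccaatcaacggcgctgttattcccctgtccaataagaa
Pfdn5 (chr15:102326024-102326115, plus strand): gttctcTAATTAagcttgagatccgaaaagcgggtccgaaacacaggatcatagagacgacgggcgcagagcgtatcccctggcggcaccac
Alg3 (chr16:20610762-20610913, minus strand): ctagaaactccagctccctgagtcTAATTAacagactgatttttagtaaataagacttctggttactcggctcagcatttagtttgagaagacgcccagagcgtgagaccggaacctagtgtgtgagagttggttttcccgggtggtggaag

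Dusp6, which encodes a phosphatase that dampens ERK signalling, is shown, also by choice after its values were seen, as a promoter covered by a peak whose printed stretch has no palindrome and 1 core, in capitals.
Dusp6 (chr10:99262981-99263230, plus strand): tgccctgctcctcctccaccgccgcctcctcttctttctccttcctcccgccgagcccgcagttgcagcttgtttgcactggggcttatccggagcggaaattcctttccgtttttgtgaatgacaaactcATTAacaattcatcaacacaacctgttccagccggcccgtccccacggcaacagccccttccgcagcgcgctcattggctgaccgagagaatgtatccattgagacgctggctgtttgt

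The palindrome TAATTA was present in 29 of the 211 promoter windows overlapped by a gene-end peak, or 13.7% (9.40 to 19.1). Among all promoter windows of protein-coding genes it was in 4.50%, which gives a ratio of 3.05. Any overlap counts, even of a few bases, and such windows are called under a peak here. The peak centre lay within 74 of them, of which 9 held the palindrome (12.2%). In all, 1870 words of 6 bases were found in at least 10 of the 211 windows, counted on both strands. Among these words the palindrome ranked 2 by the ratio, after ATACGG, which was in 5.69% against 1.85%. The windows belonged to 199 genes and 183 peaks, so some windows shared a peak. Windows with the palindrome were also grouped on chromosome 17. There they included those of Zfp97 and the nearby predicted genes Gm38396, Gm5165 and Gm6712, of Zfp952 and Zfp763, and of H2-T22 and Gm6034, which share a peak. These genes are named after the values were seen, and the palindrome share was not counted without chromosome 17. Counted per peak, 24 of 183 had the palindrome in an overlapped window (13.1%, 8.59 to 18.9), and in 18 it lay within the overlap itself. The single core TAAT, which every palindrome also contains, was in 68.7% (62.0 to 74.9) of the windows under a peak and in 51.6% of all windows.

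Base composition differed between the same windows. The median GC content was 52.0% under a peak (quartiles 47.5 and 55.7) and 56.7% in all windows (48.7 and 64.7), and the median number of CpG was 10 and 13. Within windows of less than 50% GC, the palindrome was in 17 of 71 under a peak (23.9%, 14.6 to 35.5) and in 11.9% of all such windows. At 50% GC or more, it was in 12 of 140 (8.57%, 4.51 to 14.5) and in 1.57%. The share under a peak was the higher one on both sides of this limit. A split at 1 limit leaves the GC content unmatched within each side, so the part of base composition in this difference was not tested. The single core differed on 1 side only: it was in 87.3% (77.3 to 94.0) of the windows under a peak and 88.1% of all windows below 50% GC, and in 59.3% (50.7 to 67.5) and 37.2% at 50% GC or more.

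Other motifs were searched in the same way on both strands. The ETS site CCGGAAG was in 19.4% (14.3 to 25.4) of windows under a peak against 11.9% of all, and the NFY box CCAAT in 46.0% (39.1 to 52.9) against 38.1%. Split at 50% GC, the interval of the NFY box included the share of all windows on both sides. It was in 50.7% (38.6 to 62.8) against 43.4% below this limit, and in 43.6% (35.2 to 52.2) against 36% from it upwards. The ETS difference lay mainly in windows below 50% GC, with 19.7% (11.2 to 30.9) against 2.70%, and was small at 50% GC or more, with 19.3% (13.1 to 26.8) against 15.5%. The NRF1 core GCGCATGC was in 7.04% (2.33 to 15.7) against 0.712% of the windows below 50% GC, and in 4.27% (1.97 to 7.94) against 3.57% overall. The Sp1 box GGGCGG was less frequent under a peak over all windows, with 34.6% (28.2 to 41.4) against 46.9%, and at 50% GC or more, with 42.9% (34.5 to 51.5) against 62.7%. Below 50% GC its direction turned, with 18.3% (10.1 to 29.3) against 6.87%. For the bicoid-type site TAATCC, which contains the core, the GATA-factor site AGATAA, the forkhead site TGTTTAC and the SOX site AACAAT, the interval over all windows under a peak included the share of all windows. At 50% GC or more the SOX site was the more frequent under a peak, with 9.29% (5.04 to 15.4) against 4.50%. Below 50% GC it was in 16.9% (9.05 to 27.7) against 19.9%. A match gives letters in a window and is not a measured site.

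**Figure D1:**
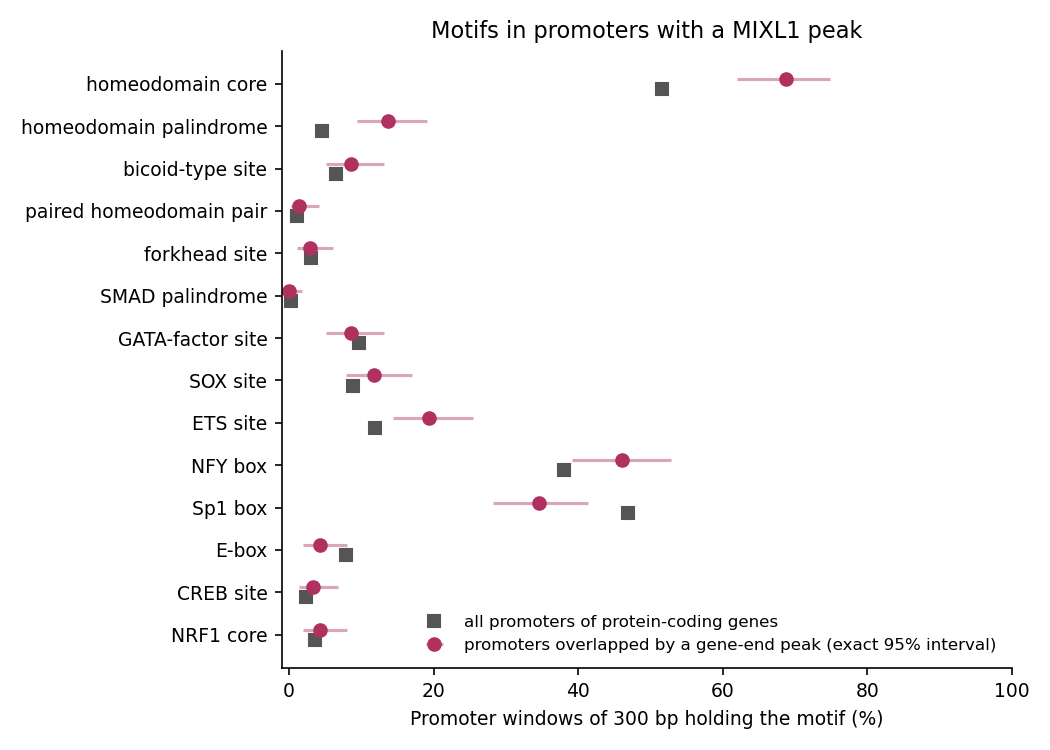
Share of RefSeq promoter windows (%, horizontal axis) that hold each of 14 motifs, named on the vertical axis. Circles with exact 95% intervals are the 211 windows overlapped by a gene-end peak and squares are all 19362 windows; the homeodomain palindrome stands at 13.7% against 4.50%, and the Sp1 box at 34.6% against 46.9%, a direction that turns in windows below 50% GC.

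Gene-end peaks lay mostly at starts. The strand was known for the gene nearest to 440 of the 568 peaks, and the nearest end was the start for 349 of them (79.3%, 75.2 to 83.0) and the 3′ end for 91. The remaining 128 peaks had a nearest gene without a known strand. Of the 15869 genes with a known strand, 384 had a peak within 1 kb of the start (2.42%) and 104 within 1 kb of the 3′ end (0.655%).

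Peaks at starts were also closer to the end than peaks at 3′ ends. The median distance from the peak centre was 358 bp at starts (quartiles 162 and 602) and 482 bp at 3′ ends (298 and 703). A distance of 250 bp or less was found for 38.4% (33.3 to 43.7) of the start peaks and 19.8% (12.2 to 29.4) of the 3′ peaks. The peak itself ran across the start in 132 of 349 (37.8%, 32.7 to 43.1) and across the 3′ end in 17 of 91 (18.7%, 11.3 to 28.2). In bins of 200 bp the fullest was the one just inside the gene, from the start to 200 bp after it, with 66 peaks, while 41 were centred in the 200 bp before the start.

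**Figure D2:**
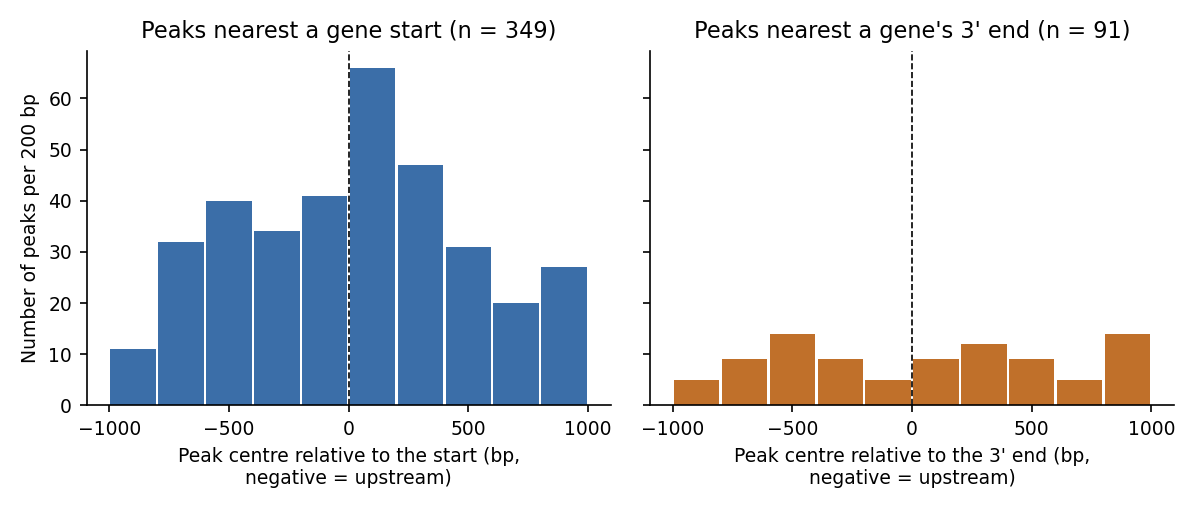
Number of gene-end peaks per 200 bp (vertical axis) by the position of the peak centre relative to the gene start (left, 349 peaks) or 3′ end (right, 91 peaks), in bp along the gene's strand with negative values upstream. Start peaks were most numerous in the bin from 0 to 200 bp, with 66, whereas no bin at the 3′ end held more than 14.

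The limit of 1 kb cut through a continuous range of distances. There were 344 peaks up to 500 bp from an end, 224 between 500 and 1000 bp, and 162 more between 1000 and 1500 bp. Just inside the limit were the peaks of Resp18 (996.5 bp), Celsr3 (997 bp) and Sgip1 (999 bp), and just outside it those nearest to Ghsr (1001 bp), Pcp4l1 (1002 bp) and Synrg (1006.5 bp).

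The 10 peaks closest to a gene end included those of Lhx3 and Zfp260, which encode transcription factors. The peak of Lhx3, a LIM-homeodomain gene of motor neurons and pituitary, was centred 6 bp before its start, at chr2:26208128-26208382. Zfp260, a zinc finger gene, had its peak 6.5 bp before the start, Cep97, which encodes a centriolar protein, 4.5 bp before it, Nckap5 7.5 bp before it and Glrx, which encodes glutaredoxin, 11 bp before it. For Sra1, Tomm40l and Gap43, whose strand was not known, the peak ran across a gene end. The closest also included Vmn2r32, a vomeronasal receptor gene, at 5.5 bp after its start.

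Peaks at gene ends were narrower than the rest. Their median width was 415 bp (quartiles 303.75 and 566.25), against 479 bp for 3439 peaks inside protein-coding genes and 482.5 bp for 3784 peaks outside them. A width of 1 kb or more was found in 30 gene-end peaks, or 5.28% (3.59 to 7.45), against 10.8% (9.83 to 11.9) and 12.6% (11.5 to 13.7). With all peaks split by width into 4 equal parts, the share at gene ends was 10.3% in the narrowest part, then 7.85%, 6.73% and 4.31%. Width does not stand for the strength of a peak, which a list of positions does not record.

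The widest gene-end peaks were few and scattered. The widest, of 2331 bp, ran across an end of Angpt2, which encodes a ligand of the endothelial receptor TIE2, at chr8:18740332-18742662. The peak of Cer1, at chr4:82884992-82886467, was 1476 bp wide, ran across the start and was centred 578.5 bp before it. Ankrd40 had a peak of 1784 bp at its 3′ end, Zfp960 one of 1665 bp, Garem1 one of 1630 bp, Tdpoz3 one of 1537 bp and Cyb561a3 one of 1444 bp. The remaining 3 of the 10 widest lay at predicted genes, 2 of them at the ends of 5031410I06Rik and 1 at Gm45975.

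**Figure D3:**
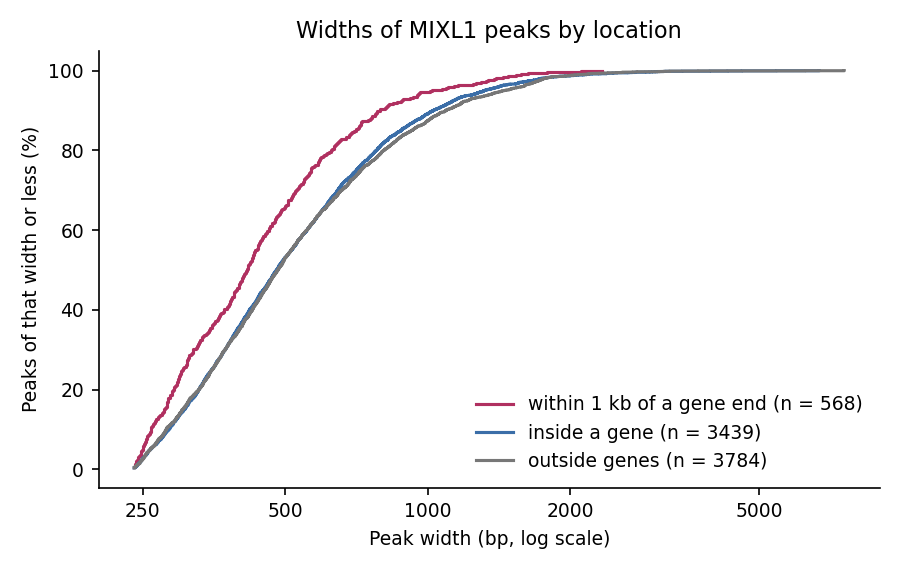
Cumulative share of peaks (%, vertical axis) up to each width (bp, log scale, horizontal axis) for peaks within 1 kb of a gene end, inside protein-coding genes and outside them. The curve of gene-end peaks lies to the left of the others, with a median of 415 bp against 479 and 482.5 bp.

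Gene-end peaks were somewhat less often close to another peak. Another peak lay within 10 kb of 118 gene-end peaks (20.8%, 17.5 to 24.3), of 24.7% (23.3 to 26.2) of the peaks inside genes and of 26.5% (25.1 to 27.9) of those outside. Of the 605 genes 582 had 1 peak and 23 had 2, and none had more. Of the 20 such genes with a known strand, 11 had 1 peak nearest each end, 5 had both at the start and 4 both at the 3′ end. Stx8, which encodes an endosomal syntaxin, had peaks centred 106 bp after its start and 537 bp before its 3′ end. Lamb2, which encodes a laminin chain, had both before its start, at 51 and 800.5 bp, and Gbp2, which encodes an interferon-induced GTPase, had both after it, at 101.5 and 734 bp. Itln1, Olfml3 and Vmn2r32 had 1 at each end, and Akr1a1 had both at its start. Zfp640 and the predicted gene Gm21698 had both at the 3′ end.

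Some gene-end peaks lay at shared or facing promoters. Of the 568 peaks 58 lay within 1 kb of ends of 2 genes and 1 within reach of 3. In 29 of them the peak lay at 2 starts. These included Trp53, the p53 tumour suppressor gene, with Wrap53, whose product assembles telomerase in Cajal bodies, under a peak at chr11:69580130-69580853. Others were Med19, a Mediator subunit gene, with Tmx2, Hnrnpa1 with Cbx5, which encodes heterochromatin protein HP1α, and Cdc26, a subunit gene of the anaphase-promoting complex, with Prpf4. These pairs were picked for their known products after the list was seen. The Alg3 promoter printed above lay under a peak whose centre was also 982.5 bp before the shared start of Eef1akmt4 and the readthrough gene Eef1akmt4-ece2, which the peak itself did not reach. Of the 384 genes with a peak at the start 65 had an opposite start within 1 kb (16.9%, 13.3 to 21.1), against 10.5% of all genes with a known strand. A peak at both starts of a facing pair counts both genes, so these counts are not independent and the interval is too narrow. Another kind of gene, such as a noncoding RNA gene, had an end within 1 kb of 13.2% (10.5 to 16.3) of the gene-end peaks and of 6.69% (6.12 to 7.29) of the other peaks.

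By function, the paired-type homeobox genes, the family to which Mixl1 belongs, had the highest share of the 47 gene lists examined, with 5 of 29 genes (17.2%, 5.85 to 35.8) against the background of 3.03%. Hesx1, a repressor gene of forebrain and pituitary, had a peak across the start of its gene span at chr14:26994226-26994535, centred 38.5 bp before it. The only start that the RefSeq promoter table gives for Hesx1 lies inside this span, at position 27000362 of chromosome 14, away from the peak. Phox2a, a gene of autonomic neurons, had its peak 327 bp before the start, Shox2, a limb and heart pacemaker gene, 651 bp before it, and Prrx1, a limb mesenchyme gene that is also in the fibroblast list, 212 bp after it. Of the 17 paired-type genes with a known strand, 4 had a peak at the start of the gene span, Hesx1 among them, and none at the 3′ end.

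Across all homeobox families 12 of 198 genes had a gene-end peak (6.06%, 3.17 to 10.3). Beside the 5 paired-type genes and Lhx3 these included Lhx4, another LIM-homeodomain gene, with a peak of 966 bp centred 39.5 bp after the start, Tgif1 and Pbx2, TALE-class genes with peaks 402.5 and 394 bp before the start, and Zfhx4, a zinc finger homeobox gene. Hoxa2, a hindbrain and neural crest patterning gene, had a peak 931 bp after its start. Of the 76 Sox, Fox, T-box and GATA genes, by contrast, only Eomes had one (1.32%, 0.0333 to 7.11), an interval that includes the background.

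Zinc finger genes were the largest group above the background, with 33 of 515 (6.41%, 4.45 to 8.88), 25 of them with a peak at a start. Many encode repressors with a KRAB domain and sit in clusters of related copies. Chromosome 17 held 9 of the 33 among its 52 zinc finger genes, chromosome 13 held 6 of 44 and chromosome 7 only 4 of 106. Without chromosome 17 the share was 24 of 463 (5.18%, 3.35 to 7.61). The closest peaks were at Zfp260, Zfp640, Zfp521, an early haematopoietic and neural gene, and Zfp35, at 6.5, 33, 33.5 and 46 bp. The 2 printed promoters of this group, of Zfp763 and Zfp952, lie on chromosome 17.

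The lists of streak genes and of its signals are short, and their shares lay above the background of 3.03% with intervals that include it. Aplnr, the apelin receptor gene of early mesoderm, had a peak across an end at chr2:85135924-85136432, 182 bp from it. Eomes, a T-box gene of mesendoderm, had its peaks at 987.5 bp before the start and 990 bp beyond the 3′ end, both close to the limit. They made 2 of 23 streak genes (8.70%, 1.07 to 28.0). With Cer1 and Krt19, a keratin gene of simple epithelia whose peak was 681.5 bp from an end, Eomes made 3 of 28 definitive endoderm genes (10.7%, 2.27 to 28.2), none of them within 500 bp. In the Nodal and Activin list 2 of 28 genes (7.14%, 0.877 to 23.5) had a peak, the Nodal antagonist Cer1 and the Smad corepressor Tgif1, and no ligand, receptor or Smad gene did. All these intervals include the background.

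In the Wnt list 5 of 56 genes had a gene-end peak (8.93%, 2.96 to 19.6), and the interval again includes the background. Among the inhibitors, Rnf43, a ubiquitin ligase that removes Frizzled receptors, had a peak across its start, centred 272 bp before it, and Dkk1, a secreted antagonist, had one 839.5 bp before it. Wls, which encodes the carrier of Wnt ligands, had a peak 658.5 bp after its start, and Fzd2, a receptor gene, one 875 bp from an end. The peak counted for Dvl1, the cytoplasmic transducer, was 270.5 bp beyond its 3′ end and 305.5 bp before that of its neighbour Tas1r3, a taste receptor gene.

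The other signalling lists, and the further lists of this paragraph, all had intervals that include the background of 3.03%. In the FGF list 2 of 37 had a peak (5.41%, 0.661 to 18.2), among them Dusp6 at 50 bp after the start. Maml2, a coactivator gene of Notch signalling, was the single Notch gene of 29 (3.45%, 0.0873 to 17.8). Its peak ran across the start, centred 39 bp after it. Bmp7, a ligand gene, was the single BMP gene of 31 (3.23%, 0.0816 to 16.7), at 295 bp from an end. None of the 46 Hedgehog, Hippo and retinoic acid genes had one (0 to 7.71), nor did any of 32 pluripotency genes (0 to 10.9). The same held for 36 genes of epithelial-mesenchymal transition and adhesion (0 to 9.74) and 79 histone genes (0 to 4.56). Neural ectoderm had 2 of 34 (5.88%, Hesx1 and the adhesion gene Ncam1). Mesoderm had 1 of 35 (2.86%, Myl4, an atrial and embryonic myosin light chain gene, at 957 bp). Blood and endothelium had 1 of 33 (3.03%, the ETS factor gene Fli1, at 197 bp). Of the 24 fibroblast genes 1 had a peak, Prrx1 (4.17%).

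Several lists of widely expressed genes also stood above the background. In the transcription machinery 10 of 148 genes had a peak (6.76%, 3.29 to 12.1), the closest at Gtf2h4, a TFIIH subunit gene, 37 bp after the start, Supt7l, a SAGA subunit gene, 40.5 bp before it, Med19, 111 bp after it, and Ints9, an Integrator subunit gene. In mitochondrial respiration and import 12 of 206 had one (5.83%, 3.05 to 9.95), among them Tomm40l, Ndufa4l2, Slc25a44 and Cox6b1, a cytochrome c oxidase subunit gene, at 6, 56.5, 94 and 103.5 bp. Both intervals lie above 3.03%. For starts alone, however, both included the background of 2.42% (2.32 to 11.4 for transcription, 2.10 to 9.27 for mitochondria), and in the wider 50% of peaks both included 1.14%.

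Chromatin regulators had 12 of 215 (5.58%, 2.92 to 9.55), with the remodeller genes Chd2, Ino80d and Chd9 at 43, 184 and 230.5 bp and the Polycomb gene Pcgf1 at 241.5 bp. Cytosolic ribosomal proteins had 6 of 80 (7.50%, 2.80 to 15.6), with peaks at Rpl4, Rps12, Rpl3 and Rack1, and translation factors 6 of 114 (5.26%, 1.96 to 11.1), with Eif4e, which encodes the cap-binding factor, 40.5 bp from its peak. Mitochondrial ribosomal proteins had only Mrps31, 1 of 78. These intervals include the background.

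G protein-coupled receptors other than those of smell had 17 of 265 (6.42%, 3.78 to 10.1). The closest peaks were at Adgrf2, Mrgpra4 and Htr3b, at 12.5, 34.5 and 143 bp, and at Aplnr. The list matches by name, and Htr3b, an ion channel subunit gene, and Agtrap, which encodes a receptor-associated protein, are in it without encoding such receptors.

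Below the background were the olfactory, vomeronasal and taste receptors with 10 of 1491 (0.671%, 0.322 to 1.23), and the proteasome, ubiquitin and SUMO genes with 8 of 537 (1.49%, 0.645 to 2.91). The receptors stayed below the background under all 5 alternative settings run for the lists, whereas the interval of the ubiquitin list included it under each of them. Of the 10 receptor genes of smell and taste 4 were Vmn2r31, Vmn2r32, Vmn2r33 and Vmn2r44, related vomeronasal genes on chromosome 7. In the ubiquitin list the closest were Cul2, Fbxo8 and Fbxl12, subunit genes of ubiquitin ligases, and Rnf43. Of the 47 lists 25 had a share above 3.03%, 6 had an interval wholly above it and 2 wholly below. Those 6 were the paired-type and all homeobox lists, zinc fingers, transcription machinery, mitochondrial respiration and the G protein-coupled receptors. Of these 6, zinc fingers alone stayed above the background under all 5 alternative settings, and in the wider 50% of peaks (background 1.14%) the intervals of the other 5 included it. No list was tested, and the lists share members.

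**Figure D4:**
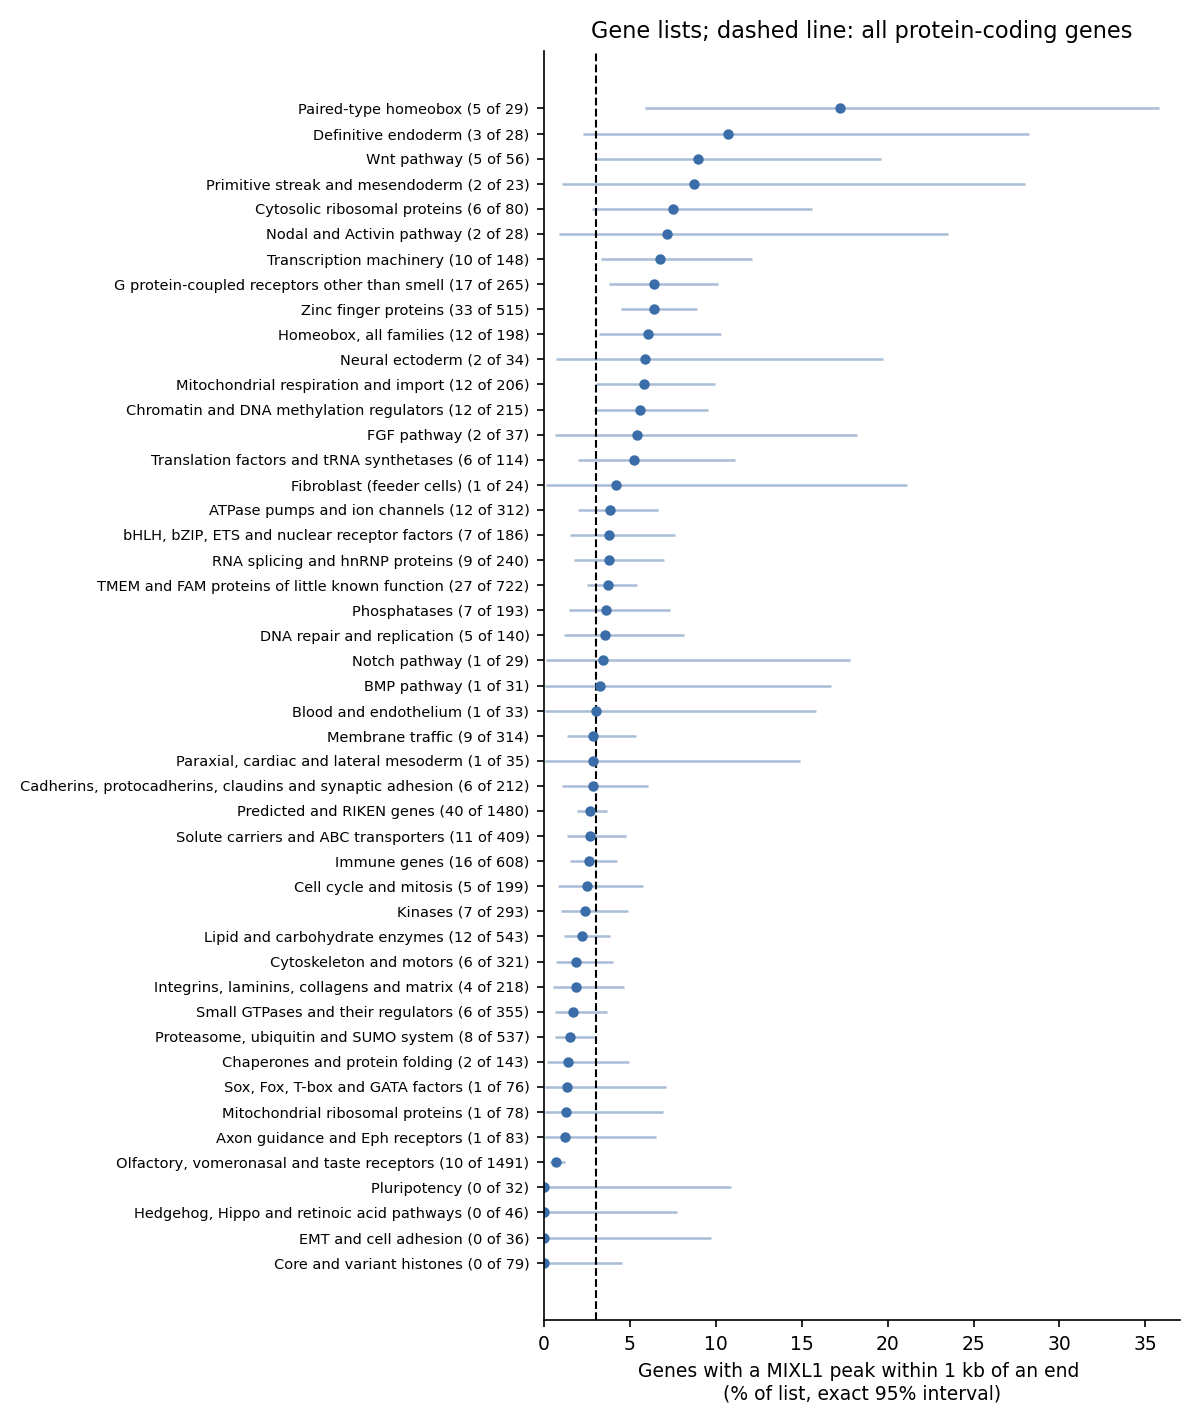
Share of the genes of each of 47 lists with a gene-end peak (%, horizontal axis), with exact 95% intervals, and the number of genes in brackets. The dashed line is the share of all protein-coding genes, 3.03%; paired-type homeobox genes stand highest with 17.2%, and 4 lists hold no gene with a peak.

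The remaining lists lay around the background or below it, with intervals that included it. Phosphatases had 7 of 193, all with a peak at the start, including Ptp4a2, Dusp6, Ptprr and Ppp1r11. DNA repair and replication had 5 of 140, including Xrcc5, which encodes the Ku80 end-joining protein, Trp53 and the Fanconi anaemia gene Fancc. Cell cycle genes had 5 of 199, including Cdc123, Kif14, Cdc23 and Cenpp. Ion channels and pumps had 12 of 312, including the proton pump genes Atp6v0e2 and Atp6v1f and the channel genes Cacng2 and Cnga3. Splicing and RNA-binding proteins had 9 of 240, including Cstf2t, Snrnp200, Cpsf7 and Dhx32. Factors of the bHLH, bZIP, ETS and nuclear receptor families had 7 of 186, including Neurod4, Bhlhe22 and Fli1. Immune genes had 16 of 608, including Gbp2, H2-T24, Cd79a and Klrb1a. Lipid and carbohydrate enzymes had 12 of 543, including Elovl6, Alg3, Akr1a1 and Has2. Membrane traffic had 9 of 314, including Stx8, Syt4, Gabarap and Trappc6a, and solute carriers and ABC transporters 11 of 409, including Abca4 and Abcg2. Kinases had 7 of 293, where Mapk8ip2, a scaffold gene, is matched by name only, and cadherins and synaptic adhesion had 6 of 212, including Cdh10 and Nectin3. Matrix and integrin genes had 4 of 218, including Lamb2, Vcan and Tnr, while Itgb3bp, which encodes a centromere protein, is matched by name only. The cytoskeleton had 6 of 321, small GTPases and their regulators 6 of 355, chaperones 2 of 143 and axon guidance 1 of 83. Genes named TMEM, FAM and the like had 27 of 722, and predicted and RIKEN genes 40 of 1480. Of the 605 genes 323 stood in at least 1 list and 282 in none.

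Both the share of peaks at gene ends and the share of genes with a gene-end peak differed between chromosomes. The share of protein-coding genes with one ranged from 1.93% (1.09 to 3.17) on chromosome 15 to 5.29% (4.02 to 6.81) on chromosome 17. Chromosome 18 had 5.28% (3.51 to 7.59) and chromosome 11 had 4.41% (3.46 to 5.53), also with intervals above 3.03%, and chromosome 2, with 2.19% (1.56 to 2.98), had one below it. Of the peaks on chromosomes 17 and 18, 8.29% (6.29 to 10.7) and 9.77% (6.42 to 14.1) lay at gene ends. On chromosomes 2 and 15 these shares were 5.59% (3.86 to 7.81) and 5.53% (3.06 to 9.11). All these intervals include the 7.29% of all peaks. Chromosome 11 lay above it with 10.8% (8.41 to 13.6), and chromosome 14 below it with 4.64% (2.77 to 7.23). Genes with a gene-end peak were of ordinary length, with a median of 16.5 kb (quartiles 7.30 and 38.8) against 17.3 kb (5.85 and 44.4) for all genes.

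**Figure D5:**
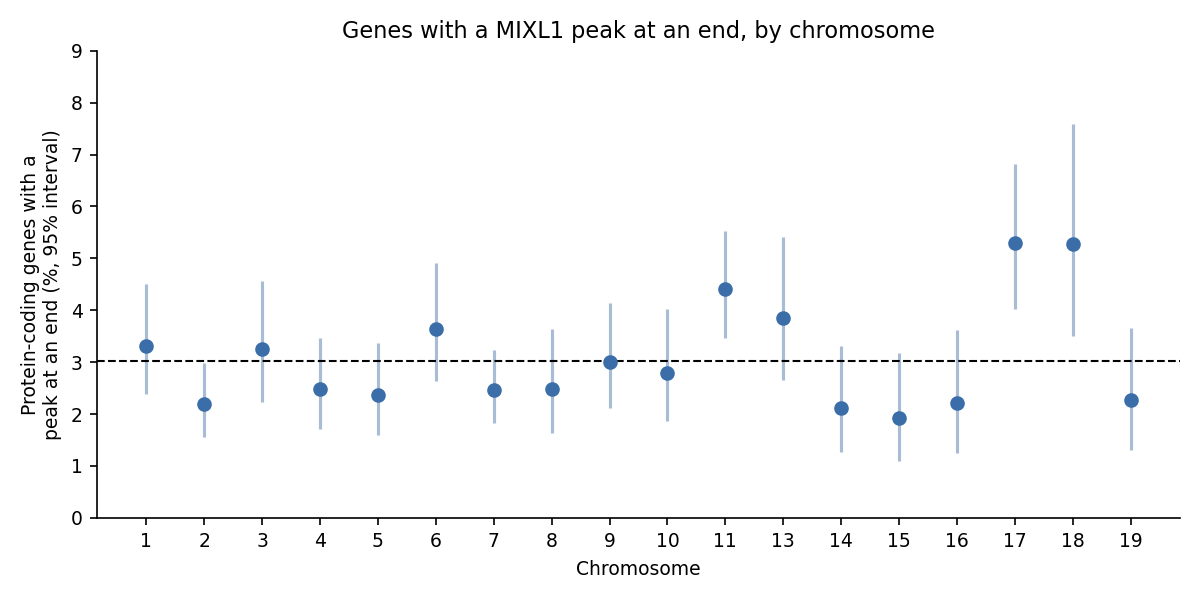
Share of protein-coding genes with a gene-end peak (%, vertical axis, exact 95% intervals) on each of the 18 autosomes used (horizontal axis). The dashed line is the share over all of them, 3.03%; the intervals of chromosomes 11, 17 and 18 lie wholly above it, and chromosome 15 is lowest with 1.93%.

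Some members belong to families of near-identical copies, which short reads cannot always tell apart. Of the 471 genes with a gene-end peak and a promoter sequence, 25 shared over 50% of the 30-base words of a promoter with another gene of different position (5.31%, 3.46 to 7.74), against 4.36% of all genes with a promoter sequence. They include Vmn2r31, Vmn2r32 and Zfp640. Of the grouped palindrome genes on chromosome 17 they include Zfp97 and Gm38396, but not the nearby Gm5165 and Gm6712. How reads from repeats were placed is not stated in the sources used here, and its effect was not tested. Without all 692 genes with such a promoter the share of genes with a peak was 3.01% (2.77 to 3.26). The share of windows with the palindrome was then 13.5% (9.09 to 19). Copies that share fewer words, and genes without a promoter sequence, stayed in these counts.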

How the data were processed

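FLAG-MIXL1 ChIP-seq was made from 2 FLAG and 2 input libraries of Mixl1-inducible EpiSC-derived embryoid bodies, whose groups come from the labels. The authors deposited 1 list of 9598 peak positions (chromosome, start, end). The submitters' processing notes name mm10 as the build and MACS2, Bowtie2, SAMtools and CASAVA 1.8.2 as tools. The name of the deposited list carries short tags that may refer to filters or a threshold, but their meaning is not explained. Beyond these tags, the sources used here do not state threshold, filters, use of the input or pooling. The depth of each library is unknown.

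Each peak centre was set against both ends of protein-coding gene spans of NCBI RefSeq GRCm38.p6. The gene table has no strand, exons or UTRs, so strand came from the RefSeq promoter table, which covers 15869 of 19986 genes (none on chromosome 18). Positions are printed 1-based. No test was made, since 1 list allows none. Shares have exact Clopper-Pearson 95% intervals, which cover counting error only, and neighbouring genes can share a peak. The gene lists were matched by symbol, and the members and lists were chosen with earlier results of these data known. Named are all genes with a peak from the signalling, streak, endoderm, pluripotency, homeobox and mesoderm lists, up to 4 closest genes of other lists, the 10 genes with the most peaks, the 10 widest and the 10 closest peaks, and the promoters with facing cores. Further genes named are said to be chosen after their values were seen. Some genes that this rule takes are counted but not reported here by name. Some genes are named only as neighbours that share a peak. The search script was tested on simulated data. Python 3.11.15, numpy 2.4.6, scipy 1.17.1 and pandas 2.3.3 were used. Alternatives were other distances, starts only, other gene and peak sets, and windows by GC content.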

Additional observations from a re-analysis of the deposited data

Results flagged for a closer look

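Chromosome 12, which was left out, held 50 gene-end peaks among 1541 peaks (3.24%, 2.42 to 4.26), at 56 of its 679 protein-coding genes (8.25%, 6.29 to 10.6), so that a smaller share of its peaks and a larger share of its genes were involved than on the other autosomes. Chromosome X held 9 gene-end peaks among 71 (12.7%, 5.96 to 22.7), at 9 of 966 genes (0.932%, 0.427 to 1.76). A further 195 peaks lay on contigs outside the assembled chromosomes and were not set against genes. These peaks stand apart because they are outside the comparisons above, and no control level was measured for them.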

How the results depend on the processing

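No replicate could be left out because the authors deposited 1 list for all libraries. No paired analysis was possible because the result comes from no test. The share of peaks at gene ends, 7.29%, was 4.42% at a distance of 500 bp, 11.2% at 2 kb, 8.39% by the nearest base of a peak, 4.60% for starts alone, 5.48% in the wider 50% of peaks and 6.67% with chromosomes 12 and X. The share of genes, 3.03%, was 1.85%, 4.62%, 3.47%, 2.42% and 1.14% under the same settings up to the wider peaks, and 2.78% once windows of 1 Mb with at least 20 peaks were left out. The share nearest a start, 79.3%, was 73.9% at 2 kb. By the starts of the promoter table, added after seeing the data, 73.9% of the 440 peaks lay within 1 kb of a start. The palindrome share of 13.7% was 23.9% below 50% GC and 8.57% at or above it, both also added after seeing the data. No gene in the first 3 Mb had a gene-end peak, so leaving these genes out kept all 568 peaks and 605 genes and says nothing on stability. The shares of peaks and genes stayed within their intervals without predicted genes. Without copied promoters, also added, so did the shares of genes, of windows with the palindrome and of zinc finger genes (6.46%). The number of lists above the background ranged from 24 to 29. Of the 6 lists with an interval above the background, 5 kept it at 500 bp (not the G protein-coupled receptors), 5 at 2 kb and 5 without dense windows (not mitochondrial respiration), 4 for starts alone (not transcription or mitochondria) and 1, zinc fingers, in the wider peaks. Of 66 list shares recomputed for 13 lists, 52 stayed within the interval and 14 did not. With 500 bp no definitive endoderm gene was left. The wider peaks left 18 zinc finger genes (3.50%, 2.08 to 5.47) and 4 homeobox genes (2.02%, 0.553 to 5.09), against 1.14% of all genes. The depth cannot be assessed from positions.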
